A study of Mus musculus with 9 samples.

Results

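Open chromatin around 9 genes of the AP-1 family was followed in mouse osteosarcoma cell lines: Fos, Fosb, Fosl1, Fosl2, Jun, Junb, Jund, Batf3 and Atf3. The members were the peaks that overlapped the span of one of these genes extended by 50 kb on both sides (GRCm38), sorted into peaks at a gene end and peaks further away. After the peaks of all libraries were joined where they overlapped by 1 bp or more, 153 of 124230 regions lay in these windows, and the 9 genes were among 21887 protein-coding genes in the gene table. Lines derived from primary mouse osteosarcomas, malignant tumours of bone, were profiled with 3 bulk ATAC-seq libraries each, an assay that tags open chromatin with the Tn5 transposase. By genotype the lines were p53R172H/- (a mutant p53 and no second functional copy, called the R172H line here), p53R245W/- (the R245W line) and p53-/- (the null line), and all were kept in the same serum-containing medium. Each genotype was represented by 1 line, so genotype and line cannot be told apart. Whether a line's libraries were made from separate cultures is not stated in the labels, so the p-values capture library-to-library spread, which may be technical.

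AP-1 is a transcription factor made of paired basic leucine zipper proteins. Fos proteins need a Jun partner to bind DNA, whereas Jun proteins also pair with each other, with ATF proteins and with BATF proteins. Several of the genes are immediate early genes, transcribed within minutes of growth factor or stress signals through MAP kinases, SRF with its ELK cofactors, and CREB/ATF proteins. In bone, Fos is needed to form osteoclasts, forced Fos expression causes osteosarcoma in mice, and Fosl1, Fosl2, Junb and a short form of Fosb act in osteoblasts.

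The lists held 73366 ± 854 peaks in R172H (SD, n = 3), 65638 ± 389 in null and 77202 ± 2075 in R245W, and read depth is unknown. Markers fitted the labelled tissue in part. A peak within 1000 bp of a gene end was present in all 3 libraries of every line at 5 of 7 osteoblast genes and 4 of 4 mesenchymal genes, but the late osteoblast genes Bglap and Ibsp had none in any library. Of other cell types, 3, 2 and 2 of 4 haematopoietic genes (R172H, null and R245W), 1, 1 and 2 of 3 epithelial genes and 1 of 3 endothelial genes in each line were open in all 3 libraries. Of these genes Ptprc, Cdh1, Pecam1 and Cdh5 were open in no library, so the markers of other cell types gave a mixed result. The peaks come from bulk nuclei, so fewer cells with an open site and less opening per cell cannot be told apart.

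All 9 genes had an open gene end, a peak within 1000 bp of either end of the span, in 9 of 9 libraries. This was the case for 55.0% of all protein-coding genes, so the members' state is shared with many genes. The promoter table (RefSeq, GRCm38.p6) held 8 of the 9 genes, all but Fosl1. A peak overlapped the 250 bases before the annotated start in 9 of 9 libraries at 7 of the 8, and in 0 libraries at Jund. Of 17492 promoters in the table, 51.5% had such a peak in all 9 libraries and 38.2% in none. Sequences are shown for the founding pair Fos and Jun, for the partners Atf3 and Batf3, and for Jund, the exception. Each line gives those 250 bases from 5′ to 3′ on the gene's own strand, and capitals mark matches on either strand to the octamer TGACNTCA, the CRE core TGACGT, the TATA box TATAAA or the GC box GGGCGG. The locations are chr12:85473640-85473889, plus strand (Fos), chr4:95052223-95052472, minus strand (Jun), chr1:191183334-191183583, minus strand (Atf3), chr1:191098164-191098413, plus strand (Batf3) and chr8:70697489-70697738, plus strand (Jund).
Fos: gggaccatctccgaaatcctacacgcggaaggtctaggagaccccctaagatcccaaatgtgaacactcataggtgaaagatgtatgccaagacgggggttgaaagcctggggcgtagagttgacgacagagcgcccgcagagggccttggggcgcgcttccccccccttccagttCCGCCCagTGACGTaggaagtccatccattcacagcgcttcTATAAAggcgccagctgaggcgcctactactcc
Jun: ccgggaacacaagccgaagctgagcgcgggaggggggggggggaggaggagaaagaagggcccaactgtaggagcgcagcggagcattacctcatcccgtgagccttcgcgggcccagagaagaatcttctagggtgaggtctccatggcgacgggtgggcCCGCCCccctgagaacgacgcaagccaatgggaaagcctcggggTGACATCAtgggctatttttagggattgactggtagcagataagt
Atf3: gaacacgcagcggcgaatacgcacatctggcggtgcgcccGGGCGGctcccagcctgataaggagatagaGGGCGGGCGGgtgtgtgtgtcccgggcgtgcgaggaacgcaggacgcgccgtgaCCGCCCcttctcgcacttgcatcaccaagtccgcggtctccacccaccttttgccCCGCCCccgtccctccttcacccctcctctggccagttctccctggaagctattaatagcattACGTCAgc
Batf3: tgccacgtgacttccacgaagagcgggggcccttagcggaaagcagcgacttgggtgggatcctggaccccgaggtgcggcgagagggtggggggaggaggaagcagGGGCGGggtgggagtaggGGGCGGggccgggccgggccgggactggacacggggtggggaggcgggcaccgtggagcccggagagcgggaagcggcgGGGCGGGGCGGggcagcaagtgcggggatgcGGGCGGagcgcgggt
Jund: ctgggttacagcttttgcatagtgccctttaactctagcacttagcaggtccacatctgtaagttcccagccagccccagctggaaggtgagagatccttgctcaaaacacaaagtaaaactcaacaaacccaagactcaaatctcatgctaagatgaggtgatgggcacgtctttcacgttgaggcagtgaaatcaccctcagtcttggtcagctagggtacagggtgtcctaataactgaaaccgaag

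The letters differed between these promoters. TGACGT, the core of the CRE element bound by CREB and ATF proteins, was found at Fos (position -66 counted from the start) and, on the opposite strand, at Atf3 (position -8), and in 7.56% of all promoters (11.1% of those with a peak in all 9 libraries). The Fos promoter also held TATAAA at -33, a match present in 12.4% of promoters and in 5.53% of those with a peak in all 9 libraries. Jun held TGACATCA at -45, the only match among the 8 to TGACNTCA, which 7.30% of promoters hold (5.80% of those with a peak in all 9 libraries). That pattern includes the full CRE palindrome, within which TGACGT also lies. The GC box GGGCGG was found in 6 of the 8 members against 42.7% of promoters and 65.0% of those with a peak in all 9 libraries, with 5 copies each at Atf3 and Batf3, some of them overlapping. TGANTCA, the classical AP-1 site, and the CArG box bound by SRF were in none of the 8 windows of 250 bases, in 6.22% and 1.39% of all promoters, and in 3.76% and 0.987% of those with a peak in all 9 libraries. The share of G and C was 47.6% at Jund, below the median of all promoters (55.2%), and 58.4% to 76.0% at the other 7. The summit of the Jund peak lay 1123 to 1391 bp past the annotated start. The 250 bases printed for Jund may therefore not be the promoter in use, which was not tested. Jund and Junb were the members without any of the 4 capitalised motifs, and of these only Jund had no peak in the window. The letters CCAAT, searched for but not capitalised, were found at Jun (-65) and at Junb (-36). They were in 36.3% of all promoters and 37.4% of those with a peak in all 9 libraries.

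Peaks near the starts had different strengths within each list. Strength is given as the percentile of a peak's -log10 q-value among all peaks of its own list, an authors' value that orders peaks within a list and is not compared between lists. The start peak of Fosl2, which encodes the Fos protein Fra-2, was the strongest of the 9 in 7 libraries and lay at the 97.4th to 99.5th percentile. That of Jund, at the 95.4th to 99.0th percentile, was the strongest in the other 2 libraries. Atf3, a stress-induced member, reached the 88.1st to 94.1st percentile, Jun the 87.0th to 92.5th, Junb the 81.8th to 91.2nd and Fos the 81.9th to 90.6th. Fosb (74.2nd to 81.8th), Fosl1 (61.4th to 78.9th) and Batf3 (59.4th to 83.2nd) were the lower ones. The value is that of the strongest peak within 1000 bp of the start. At Fosb that peak was a region within the gene in R172H and null, and the region over the start in R245W. By the authors' fold over local background at the summit the order was another one. Batf3, known for its part in dendritic cell formation, ran from 6.82 to 11.15 and had the highest fold of the 9 in 6 libraries.

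**Figure D1:**
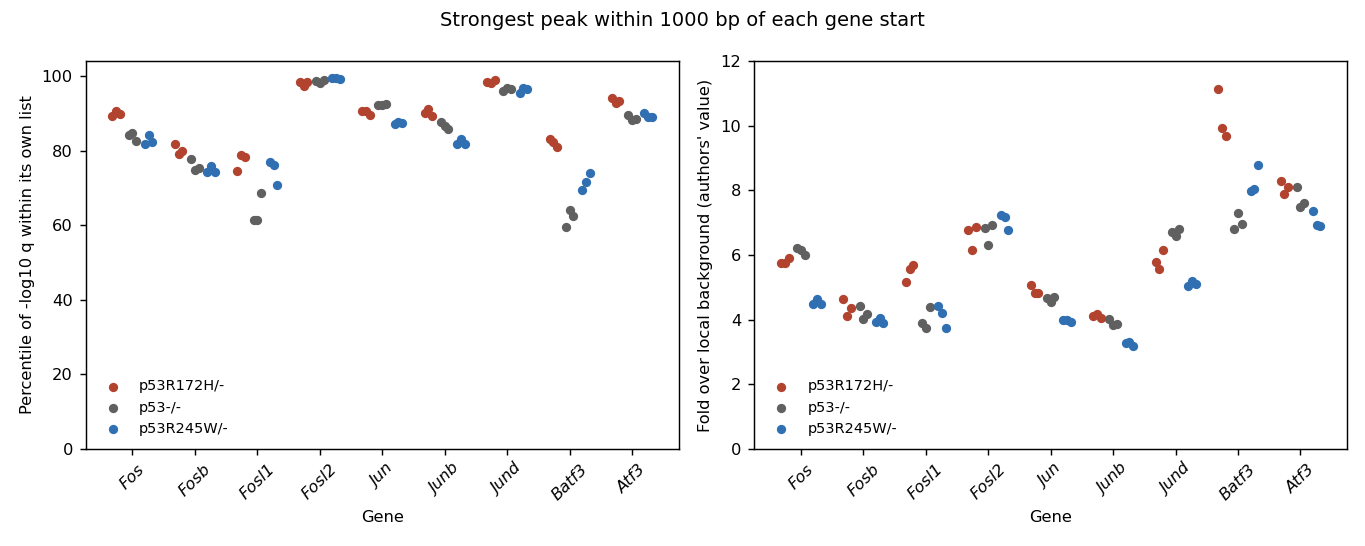
Strongest peak within 1000 bp of the start of each gene (for Fosl1 the lower end of its span), 1 point per library, as percentile of -log10 q within its own list and as the authors' fold over local background. Fosl2 and Jund head the order by percentile, whereas Batf3 has the highest fold in 6 libraries.

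Where the summit lay also differed. At Jun it fell between -47 and 134 bp from the start, at Fos between -61 and 111 bp, at Atf3 between -160 and -127 bp and at Batf3 between -1 and 14 bp. At Fosl2 the summit was about 1 kb before the start, between -1012 and -970 bp. At Jund it lay 1123 to 1391 bp inside the annotated span, so the peak touched the gene but not the window printed above. The Junb peak was 2945 to 3083 bp wide and covered the whole 1840 bp gene, with its summit 2120 to 2217 bp from the start and so past the gene's far end. Fosb had a pair of open regions near its start, chr7:19309375-19310559 over the start and chr7:19307231-19309133 within the gene. The inner region was the stronger in all 6 libraries of R172H (81.8, 79.0 and 80.0 against 73.1, 70.7 and 74.0 at the start) and null (77.7, 74.9 and 75.3 against 70.5, 74.1 and 71.3). In R245W the order was the other way round in 3 of 3 libraries (49.2, 52.9 and 55.7 against 74.2, 75.9 and 74.2). This ordering was noticed after the values were seen and was not tested.

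The strongest region of a window was often not the gene's own end. At Fos it was chr12:85454809-85456042, 17.8 kb upstream and at the end of no gene, in 9 of 9 libraries (95.5th to 98.2nd percentile). At Junb it was chr8:84965502-84966876, 10.0 kb downstream, in 8 libraries (93.4th to 96.4th). At Fosl2 and Atf3 it was the gene's own start region in 9 of 9. At Jun it was the gene's own region in 7, and chr4:95000970-95002004, 47.0 kb downstream, in the other 2, both of R245W. At Jund the gene's own region led in the 6 libraries of R172H and null, and chr8:70672655-70674089, at an end of Lsm4, led in 3 of 3 of R245W.

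No member passed the test for a different number of peaks between the lines. The test compared the spread of the 3 line means of peaks per window with that in each of the 280 ways to divide the 9 libraries into triplets (exact permutation test, one-sided), with Benjamini-Hochberg adjustment over 19290 genes. Of those genes 9.63% were called at an adjusted p under 0.05, against 0 of 9 members. Only the smallest p the partitions allow, 0.00357 (adjusted 0.0371), passes this threshold. At an unadjusted exact permutation p under 0.05 there were 2 members, Jun and Junb, against 52.7% of all genes. The largest difference between line means had a median of 1.33 peaks over the members and 2.33 over all genes tested.

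**Figure D2:**
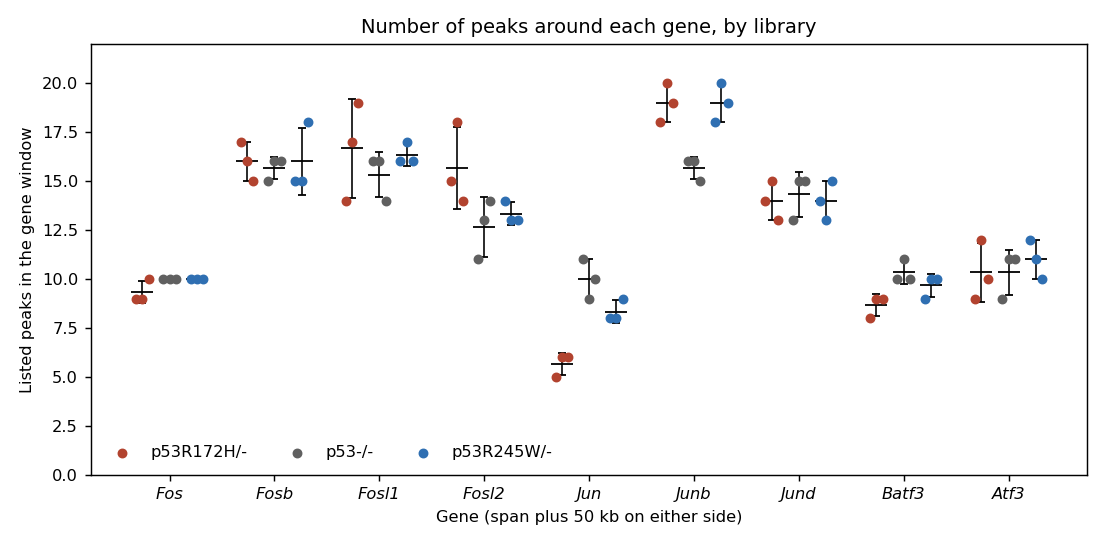
Number of listed peaks in each gene's window (span plus or minus 50 kb), 1 point per library, with the mean and SD of each line as a dash and error bar. At Jun the R172H libraries (5 to 6) lie below the other 6 (8 to 11) and at Junb the null libraries (15 to 16) lie below the other 6 (18 to 20), whereas at the other 7 genes no line lies apart from the other 6 libraries.

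Among the Fos proteins the lines overlapped at every gene. Fos had 9, 9 and 10 peaks in R172H and 10 in each of the other 6 libraries (exact permutation p = 0.25, adjusted 0.325). Fosb had 17, 16 and 15 peaks in R172H, 15, 16 and 16 in null and 15, 15 and 18 in R245W (exact permutation p = 1). Fosl1, which encodes Fra-1, had 14, 17 and 19 peaks in R172H, 16, 16 and 14 in null and 16, 17 and 16 in R245W (exact permutation p = 0.707). The widest spread was at Fosl2, with 15, 18 and 14 peaks in R172H, 11, 13 and 14 in null and 14, 13 and 13 in R245W (exact permutation p = 0.0964, adjusted 0.158). At each of these 4 genes the ranges of any pair of lines met or overlapped.

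Among the Jun proteins, Jun came nearest to the threshold. It had 5, 6 and 6 peaks in R172H, 11, 9 and 10 in null and 8, 8 and 9 in R245W, or 5.67 ± 0.577, 10.0 ± 1.0 and 8.33 ± 0.577 (SD, n = 3). All 3 R172H libraries lay below the other 6, whereas null and R245W met at 9 peaks. The exact permutation p was 0.00714, and 0.0554 after Benjamini-Hochberg adjustment. R172H stood apart from the other 6 libraries, above or below them, at 22.9% of all genes. Some line did so at 49.9%, against 2 of the 9 members (Jun and Junb). With null replicate 2 left out, Jun was called (adjusted exact permutation p = 0.0406), as were 8.8% of all genes. That library is the null one with 9 peaks, where null and R245W met. With any other single library left out Jun was not called (adjusted exact permutation p = 0.0587 to 0.0669). Over all alternatives the adjusted exact permutation p of Jun ran from 0.0158 to 0.182. Jun lies on chromosome 4, which held 5.58% of the listed peaks in R172H, 6.88% in null and 6.41% in R245W. Per 10000 peaks of chromosome 4, a scale chosen after seeing the data, the Jun window had 13.8 ± 1.4, 22.2 ± 2.4 and 16.9 ± 1.6 peaks (SD, n = 3). Jun was then called (adjusted exact permutation p = 0.0171), as were 38.9% of all genes with counts scaled to their own chromosome.

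Junb, often a brake on Jun in proliferating cells, had 18, 20 and 19 peaks in R172H, 16, 16 and 15 in null and 18, 20 and 19 in R245W. The null libraries lay below the other 6, and null stood apart from them, above or below, at 19.2% of all genes. The test gave an exact permutation p of 0.0357 (adjusted 0.0718) at Junb. Chromosome 8 held 5.90%, 4.88% and 5.23% of the listed peaks in R172H, null and R245W, and per 10000 peaks of that chromosome the null line was no longer the lowest (43.9, 48.9 and 47.1). Jund, the broadly expressed Jun protein, had 14, 15 and 13 peaks in R172H, 13, 15 and 15 in null and 14, 13 and 15 in R245W (exact permutation p = 1). On the same chromosome scale it had 32.3 ± 2.04, 44.8 ± 3.37 and 34.7 ± 3.28 (SD, n = 3) and was called (adjusted exact permutation p = 0.0398). Scaled in this way, 38.9% of all genes were called. The part of the chromosome shares in these results was not tested.

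The partners Batf3 and Atf3 are neighbours on chromosome 1, and 4 regions lie in both windows. Batf3 had 8, 9 and 9 peaks in R172H, 10, 11 and 10 in null and 9, 10 and 10 in R245W (exact permutation p = 0.0643, adjusted 0.116), so R245W met both other lines. It was called only per 10000 listed peaks of the library (adjusted exact permutation p = 0.0381), a setting that called 43.2% of all genes. Atf3 had 9, 12 and 10, 9, 11 and 11, and 12, 11 and 10 (exact permutation p = 0.829). Over the union of the 9 windows the lists held 112 ± 5.51 peaks in R172H, 111 ± 2.52 in null and 114 ± 2.65 in R245W (SD, n = 3). The ranges overlapped (107 to 118, 108 to 113 and 112 to 117). With every list shortened to the same number of peaks the null line had the most, 110.0 ± 2.0 against 100.3 ± 4.16 in R172H and 101.7 ± 1.53 in R245W (SD, n = 3). Per 10000 listed peaks they were 15.3 ± 0.592, 16.9 ± 0.286 and 14.8 ± 0.678, highest in the line with the shortest lists.

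Region by region, the member windows held many sites that were open in every library. Of the 153 regions, 76 (49.7%) were called in all 9 libraries, against 29.4% of all regions. Part of that gap goes with position. Among the 44 regions at an end of any gene the share was 72.7% against 67.7% in the series, and among the other 109 it was 40.4% against 23.2%. By class, 13 of 17 regions at the members' own ends and 19 of 27 at a neighbouring gene's end were called in all 9. Inside a member gene it was 0 of 11, and among distal regions 44 of 98. Distal regions lay at no gene end and outside the member genes, and some of them lay within other genes. Conversely, 29 regions were called in 3 of 3 libraries of one line and 0 of 3 of another, and 35.7% of all regions (44322) met this rule for some pair of lines. None of the 29 was at a member's own gene end, 3 were at a neighbour's end, 3 inside a member gene and 23 distal. No count here was tested, since 3 against 3 libraries cannot reach a p below 0.1.

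**Figure D3:**
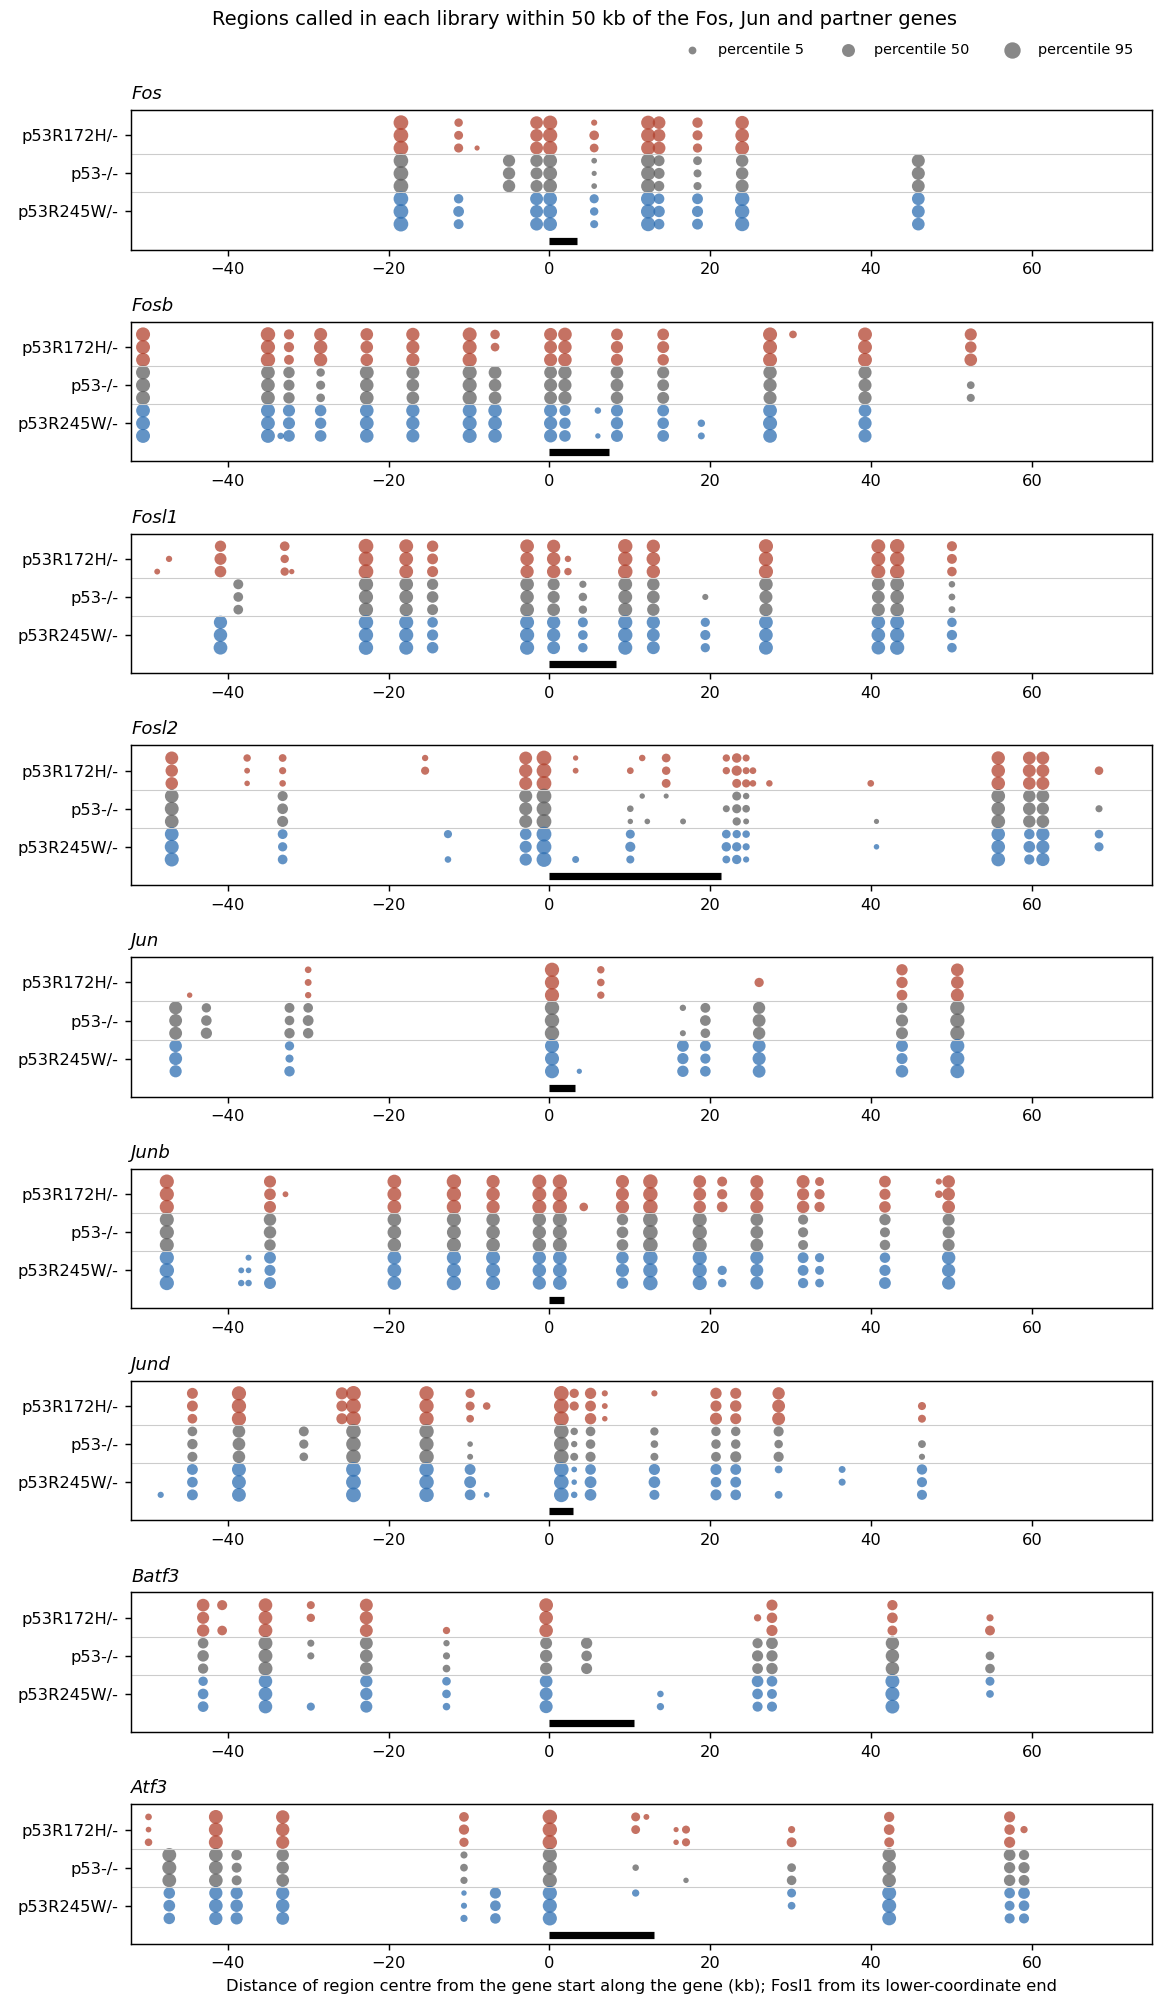
Regions in each gene's window by the distance of their centre from the gene's start in kb (Fosl1 from its lower end), with 3 rows of points per line, 1 per library, point size for the percentile of -log10 q within that list, and a black bar for the gene. Regions at the gene starts have a point in 9 of 9 libraries, whereas the Jun window shows columns of points at -32.3 and -46.5 kb in p53-/- and p53R245W/- that the 3 p53R172H/- rows lack.

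For each ordered pair of lines the member share lay below the share over all regions. Of the 153 regions, 10 (6.54%) were called in R172H and not in null against 14.5% of all regions, and 12 (7.84%) in null and not in R172H against 10.3%. There were 5 (3.27%) in R245W and not in null against 10.0%, a count that became 9 without R245W replicate 1, and 6 (3.92%) in null and not in R245W against 4.03%. Another 9 (5.88%) were in R172H and not in R245W against 11.5%, and 11 (7.19%) in R245W and not in R172H against 13.8%. Over regions at no gene end alone, the share in null and not in R245W was the exception, with 6 of 109 (5.5%) against 4.49%, and the other 5 shares stayed below those of the series. The most frequent pattern, missing from all R172H libraries and called in the other 6, was found at 7 regions (4.58%, against 6.21%): 3 at Jun, 2 at Atf3 and 1 each at Fos and Fosl1. Regions called in 1 line alone numbered 6 for R172H (3.92%, against 9.83% of all regions), 5 for null (3.27%, against 2.74%) and 2 for R245W (1.31%, against 5.79%). Regions missing from 1 other line alone numbered 3 for null (1.96%, against 3.04%) and 1 for R245W (0.654%, against 0.858%).

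**Figure D4:**
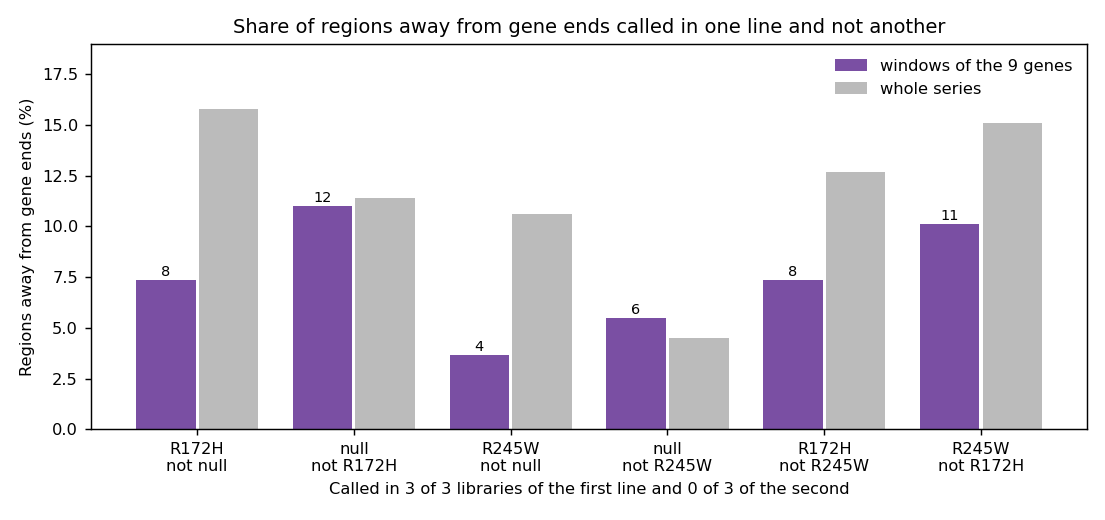
Share, in percent, of the regions at no gene end that were called in 3 of 3 libraries of the first line and 0 of 3 of the second, for the 109 such regions in the member windows (numbers above the bars give their count) and for the whole series. The member bar is the lower one for 5 of the 6 ordered pairs and the higher one for null and not R245W (5.5% against 4.49%).

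The Jun window held the most such regions, 7 of 13 (53.8%), against a median of 26.7% over all genes tested and 15.8% over the members. Only 3 of its 13 regions were called in all 9 libraries. Called in null and R245W and missing from R172H were chr4:95032544-95033105 (15.9 kb downstream), chr4:95084033-95085052 (31.8 kb upstream) and chr4:95098080-95099327 (45.9 kb upstream). The last was the strongest of the 3, at the 71.3rd to 73.7th percentile of the null lists and the 62.6th to 72.7th of the R245W lists. A further region, chr4:95035253-95035989, 13.0 kb downstream, was called in 0, 2 and 3 libraries of R172H, null and R245W. A weak region 2.6 kb downstream, chr4:95045243-95046409, was called in R172H alone (14.5th to 16.2nd percentile). The region chr4:95094516-95095244, 42.3 kb upstream, was called in null alone, and chr4:95081448-95082997, 29.2 kb upstream, in R172H and null.

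At the Fos genes such regions were fewer. In the Fos window chr12:85519361-85520182, 42.1 kb downstream, was called in null (70.6th to 73.8th percentile) and R245W (68.5th to 71.1st) and missing from R172H. A region 4.7 kb upstream, chr12:85468547-85469195, was called in null alone, at the 63.1st to 65.7th percentile. Another, chr12:85462112-85463090, 10.8 kb upstream, was called in R172H and R245W and missing from null. The Fosl1 window had 5 of 20 regions of this kind, among them chr19:5451651-5452072 inside the gene, called in null and R245W, and chr19:5406031-5407556, 40.1 kb below it, called in R172H (51.7th to 60.4th) and R245W (76.7th to 83.5th). The other 3 were chr19:5408365-5409646 in null alone, chr19:5414521-5415037 in R172H alone, and chr19:5466852-5467323, within Ctsw, in 0, 1 and 3 libraries. Fosl2 had 2 of 24: chr5:32098486-32099276 in R172H alone, and chr5:32150196-32151795 inside the gene in 3, 1 and 0 libraries. Fosb had 1 of 19, chr7:19257420-19258007 at ends of Vasp and Gm38499, in 3, 2 and 0 libraries.

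At Junb, 3 of 21 regions met the rule. Both chr8:84944118-84946186, at ends of Mast1 and Rtbdn, and chr8:84956884-84957640, at ends of Rtbdn and Rnaseh2a, were missing from null and called in 3 R172H libraries, and in R245W they were called in 3 and 2 libraries. The region chr8:85015921-85016403 was called in R245W alone and was weak (3.1st to 8.3rd percentile). At Jund, chr8:70671692-70672173, 25.6 kb upstream, was called in R172H alone at the 48.6th to 61.7th percentile, chr8:70667003-70667389 in null alone, and chr8:70704368-70704892, within Iqcn, in R172H alone at the 2.2nd to 5.9th. Of the 29 regions, 8 (27.6%) lay above the 50th percentile in all 3 lists of a line that called them while another line had none, against 30.4% of such regions over the series.

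In the Atf3 window 4 of 16 regions met the rule. The region chr1:191229995-191231213, 46.7 kb upstream of Atf3, was called in null at the 83.9th to 87.7th percentile and in R245W at the 54.2nd to 57.3rd, and in no R172H library. A second region with this pattern, chr1:191221974-191222477, lay 38.6 kb upstream. In the same window chr1:191189637-191190456, 6.3 kb upstream, was called in R245W alone (43.7th to 50.1st) and chr1:191232793-191233580 in R172H alone (3.2nd to 16.0th). Batf3 had 1 region of this kind, chr1:191102841-191103247 inside the gene, called in null alone (44.1st to 52.0th).

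Other genes of the pathway were counted in the same way, and the counts called are to be read against the 9.63% called over all genes. Of 13 basic leucine zipper partners 1 was called, Mafk, with 13, 13 and 13 peaks in R172H, 16, 18 and 16 in null and 14, 15 and 14 in R245W (adjusted exact permutation p = 0.0371). The widest range of that list was at Creb5, with 30, 34 and 31 peaks in R172H, 14, 14 and 11 in null and 29, 30 and 26 in R245W, which did not pass (adjusted exact permutation p = 0.0554), nor did Jdp2. None of 6 MAP kinase genes was called, and 3 had an unadjusted exact permutation p under 0.05, near the 52.7% of all genes. Of 6 upstream factors that act with SRF 1 was called, the SRF cofactor Mrtfb, with 18, 18 and 16 peaks in R172H, 20, 21 and 21 in null and 23, 24 and 23 in R245W. Of 7 other immediate early genes 0 were called, and 5 had an unadjusted exact permutation p under 0.05 (52.7% of all genes). In this list Egr3 had 8, 8 and 8 peaks in R172H, 11, 14 and 12 in null and 8, 9 and 8 in R245W, and Ier2 had 14 in each R172H library, 17 in each null library and 14, 13 and 12 in R245W. Egr1 went the other way, with 12, 12 and 13 peaks in R172H, 9, 9 and 8 in null and 9, 10 and 11 in R245W (exact permutation p = 0.0107, adjusted 0.0607).

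Of 11 known AP-1 target genes 2 were called (9.63% over all genes), in opposite directions. Mmp13, a collagenase of bone and cartilage, had 3, 3 and 4 peaks in R172H, 1, 1 and 2 in null and 0 in each R245W library. Plau, the urokinase plasminogen activator, had 11, 10 and 12 peaks in R172H, 15 in each null library and 17, 17 and 16 in R245W. Both had the smallest exact permutation p the partitions allow (0.00357, adjusted 0.0371). Spp1, the bone matrix protein osteopontin, had 8, 9 and 9 peaks in R172H, 13, 12 and 12 in null and 12, 12 and 11 in R245W and did not pass (adjusted exact permutation p = 0.0718). A gene end open in all 9 libraries was found at 11 of 13 partners (not at Batf and Batf2), 5 of 6 kinases (not at Mapk10, a kinase of neurons), 6 of 6 upstream factors, 6 of 7 immediate early genes (not at Egr2) and 7 of 11 targets. An end open in all 9 libraries was found at 55.0% of all protein-coding genes. The 4 other targets were Plaur, Mmp3, Mmp9 and Mmp13. Plaur was open at an end in 2, 3 and 3 libraries of R172H, null and R245W. Mmp13 was so in 3, 1 and 0, Mmp3 in 3, 0 and 0, and Mmp9 in 2, 0 and 0.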

How the data were processed

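ATAC-seq peak lists of 3 mouse osteosarcoma lines, 3 libraries each, were analysed. Per the submitters' processing notes, the build was GRCm38 and the tools included MACS2 2.1.0, Bowtie 1.1.2, Trimmomatic 0.33, bcl2fastq 2.17 and deepTools. Their settings, with any Tn5 shift of reads, were not given in the sources used here. An omitted shift would displace edges by a few bases. The authors deposited 1 list per library, not pooled, with a fold ratio at the summit over the background, a -log10 p-value, a -log10 q-value and a score per peak. The lowest deposited -log10 q was 1.3, a q of 0.05. These authors' values only ranked or filtered peaks within a list. Read depth is unknown.

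Starts were converted to count from 1. Gene spans came from a RefSeq table (GRCm38.p6) without strand or exons, so regions are not called exonic or intronic, and strands and promoters from a RefSeq promoter table. A region was called in a library with a peak overlapping it by 1 bp. Genes with a peak in their window in at least 1 library were tested. The members and gene lists were chosen with earlier results of these data known. By rule, all members, each region called in 3 of 3 libraries of one line and 0 of 3 of another, gene-end regions, and up to 4 genes per pathway list with the widest range of line means could be named, and 1 item the rule names is not reported here. Genes most like a member were to be named only for called members, and there were none. Alternatives were windows of 25 and 100 kb, a minimum -log10 q of 5, lists shortened to 1 length, merged regions, summit windows of 250 bp, 2 of 3 libraries, gene ends of 500 and 2000 bp, peaks per 10000 listed, omitting each library, and the replicate block. The scripts, tested on simulated data, ran in Python 3.11.15 with matplotlib 3.10.9, pandas 2.3.3, numpy 2.4.6 and scipy 1.17.1.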

Additional observations from a re-analysis of the deposited data

How the results depend on the processing

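The count of members called for a different number of peaks (0 of 9) was 1 with a -log10 q of 5 or more, with equal list lengths and with windows of 100 kb, and 2 per 10000 listed peaks. It was also 2 per 10000 peaks of the same chromosome, an alternative chosen after seeing the data, and 0 to 1 with 1 library left out. All genes were called more often there too, at 10.4%, 9.99%, 30.5%, 43.2% and 38.9% for these 5 settings in the order given. Regions called in R172H and not in null numbered 4 with windows of 25 kb, 24 with 100 kb and 17 with calls in 2 of 3 libraries. Those in R172H and not in R245W numbered 5 with a -log10 q of 5 or more, then 3, 20 and 16. Those in R245W and not in R172H numbered 5, 18 and 17 for the same windows and calls. Those in R245W and not in null numbered 8 with a -log10 q of 5 or more, then 2, 11 and 12, and 5 to 9 with 1 library left out. Those in null numbered 4 (not in R172H) and 2 (not in R245W) with 25 kb. Peaks in the union of windows in R172H, null and R245W were 101.7, 102.7 and 106.3 with a -log10 q of 5 or more, 68.3, 65.7 and 71.0 with 25 kb, and 181.7, 170.3 and 180.7 with 100 kb. With equal list lengths they were 100.3, 110.0 and 101.7, so null went from the lowest to the highest mean. Wider or narrower windows hold more or fewer regions by construction; the cause of the other shifts was not tested. The 9 members with an open gene end became 8 with ends of 500 bp, where Jund was lost.

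The labels give the lines the same replicate numbers. Deviations from the line means correlated at -0.008 to 0.028 in the 9 pairs of libraries with the same number and at -0.033 to 0.033 in the other 18. Peak numbers thus showed no shared deviation by replicate number, but this cannot tell whether libraries with the same number were made together. With the replicate block (36 partitions, smallest exact permutation p 0.0278) 0 members and 0% of genes were called. Jun had that smallest p and an adjusted exact permutation p of 0.182, so no gene could be called with the block. Peak lists hold no read counts, so a site missing from a list may lie just under the authors' threshold.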
